A study of Mus musculus with 9 samples.

Results

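The genes described here encode the receptor chains, Janus kinases and STAT factors through which macrophages respond to interferons. They are the receptor chains Ifnar1, Ifnar2, Ifngr1 and Ifngr2, the kinases Jak1, Jak2 and Tyk2, and the transcription factors Stat2 and Stat3. The genes were named with earlier results of these data known, by their place in the pathway and with no measured value in the rule. They were taken by gene symbol from the deposited count table, which was already filtered, and all 9 were found among its 13593 genes. All 9 passed the filter on low counts, which left 12915 genes for testing.

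The libraries came from bone marrow-derived macrophages of wild type C57BL/6 mice aged 6 weeks. Marrow cells were grown for 7 days in medium with 15% supernatant of L929 cells, a fibroblast line that releases the growth factor on which macrophages depend. The cells then received bovine serum albumin (BSA, the control protein) or one of the chemokines CX3CL1 and CCL26, in each case at 4 nM for 4 h, and each group had 3 libraries. Messenger RNA profiles were made from column-purified total RNA with the NEBNext Ultra II kit and read as pairs of 150 bp on an Illumina NovaSeq. Whether the 3 libraries of a group stem from different mice or dishes is not in the labels. The p-values therefore refer to the spread among libraries, and that spread may be technical.

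Type I interferons bind a receptor made of IFNAR1 and IFNAR2, which carry the kinases TYK2 and JAK1. Interferon gamma binds a receptor made of IFNGR1 and IFNGR2, which carry JAK1 and JAK2. Ligand binding activates the kinases, which phosphorylate STAT factors. STAT2 joins IRF9 in the complex that switches on the classical antiviral genes through the interferon-stimulated response element (ISRE), and STAT factors bound as dimers act through the gamma-activated site (GAS). STAT3 is better known in macrophages for carrying signals of interleukin-6 and of the anti-inflammatory interleukin-10. The genes of this pathway are themselves among the genes that interferons can induce, Stat2 being a well-known case.

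Total counts ran from 16923982 to 23198324 per library. CX3CL1 replicate 1 stood apart: 1193 genes had no count in it, where the other 8 libraries had 80 to 170 such genes, and its values correlated with those of the others at a mean Pearson r of 0.899 across genes, against 0.970 to 0.974. The means of the other 8 include their correlations with CX3CL1 replicate 1. The genes described here held 0.0545% of the counts of CX3CL1 replicate 1, against 0.103% to 0.122% in the other libraries. All 9 libraries shared 1 estimate of the spread, so this library also widened the error of comparisons in which it took no part. The coefficient of variation beyond counting noise that edgeR estimated for these 9 genes ran from 0.131 to 0.318 with all 9 libraries and from 0.041 to 0.0593 without it, and the median over all tested genes went from 0.241 to 0.0918. Counts of called genes below are therefore given with all 9 libraries and with the 8 that remain without CX3CL1 replicate 1. In the fit of 8 libraries 13245 genes were tested. Values of single genes are in places given from 1 of these fits alone.

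The comparison of CCL26 with BSA asks how macrophages respond to this chemokine. With CCL26 the antiviral factor Stat2 was about 2 times as abundant as with BSA (2.09-fold), and it was the 1 gene of the 9 that passed the test with all 9 libraries. In the fit of 8 libraries Ifngr1 (1.36-fold), Jak2, Ifnar1, Ifngr2 and Tyk2 also rose, by smaller amounts, and Stat3 fell (0.855-fold). Ifnar2 and Jak1 had log2 fold changes of 0.01 and -0.01 with 9 libraries and of 0.01 and 0.00 with 8. Called genes were thus 1 higher and 0 lower with all 9 libraries, against 0.387% and 0.0465% of all tested genes (0.434% in either direction). In the fit of 8 libraries they were 6 higher and 1 lower, against 9.74% and 9.26% of all tested genes (19.0% in either direction). Values of CCL26 and BSA did not overlap for 7 of the 9 genes, 6 higher and 1 lower, and for 33.1% of all tested genes (16.6% higher, 16.5% lower). Among the genes tested with 8 libraries the latter shares were 32.6%, 16.6% and 16.0%. The median log2 fold change of the 9 genes was 0.22, beside 0.00 over all tested genes. In bulk RNA such as this, a change in the share of cells that hold a transcript and a change in its level per cell cannot be told apart.

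**Figure D1:**
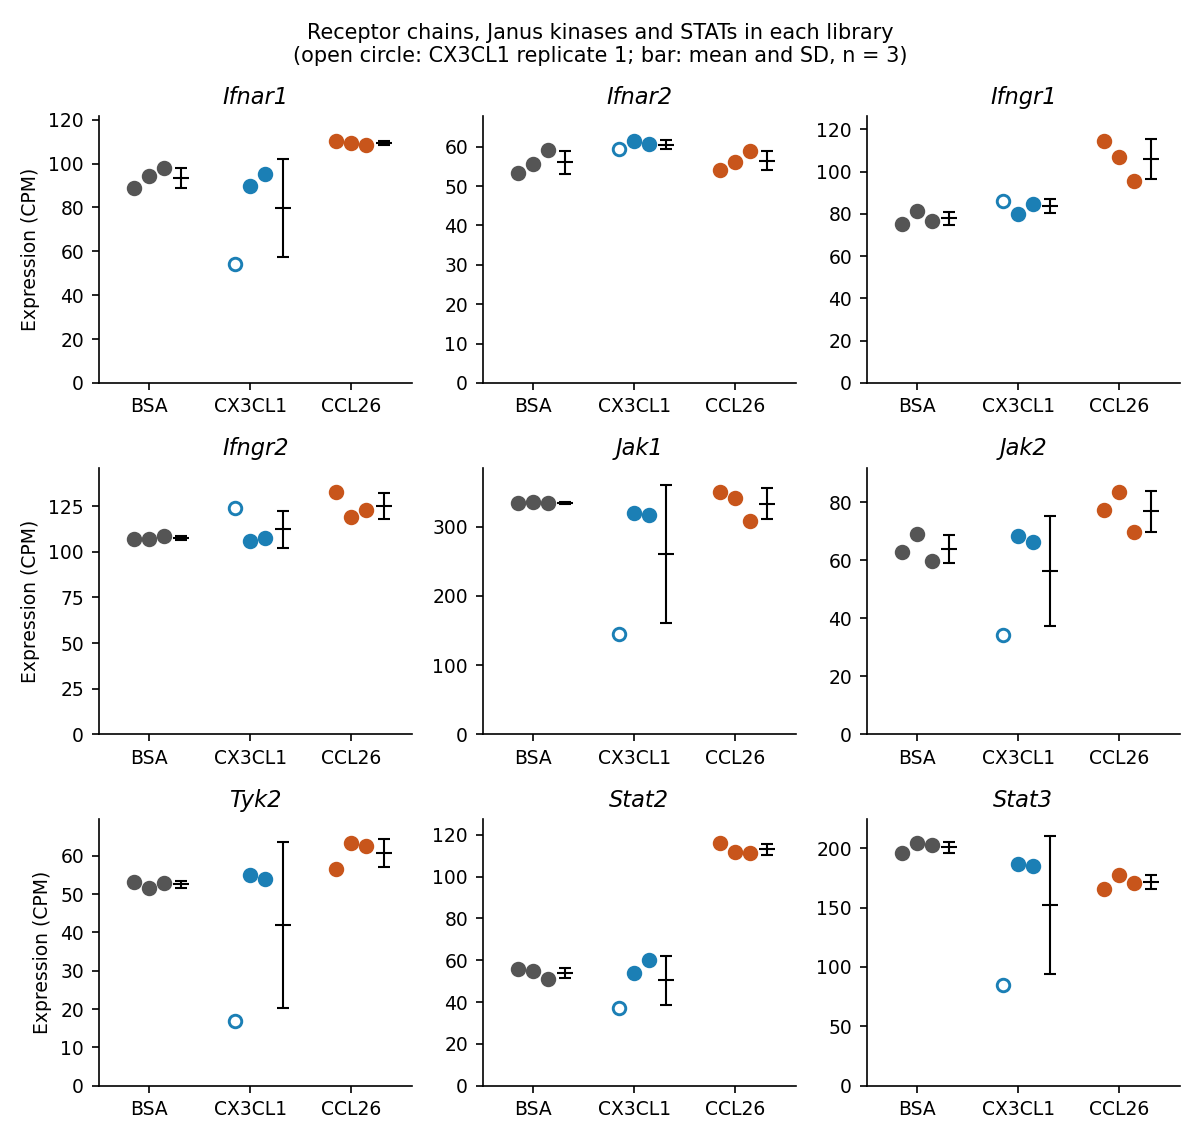
Expression of each gene in CPM (vertical axes starting at 0) in the 3 libraries of each group, with the mean and SD (n = 3) to the right of the points and CX3CL1 replicate 1 as an open circle. The CCL26 points of Stat2 lie from 111 to 116 CPM, above all other points, and the open circle is the lowest point for Ifnar1, Jak1, Jak2, Tyk2, Stat2 and Stat3.

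Of the type I interferon receptor, Ifnar1 encodes the signalling chain that binds TYK2. Values are given in CPM, counts relative to the effective size of each library. Ifnar1 was at 88.7, 94.3 and 97.8 CPM in BSA replicates 1 to 3, at 111, 109 and 109 CPM with CCL26, and at 54.4, 89.7 and 95.4 CPM with CX3CL1. Every CCL26 library lay above every other library. The log2 fold change of CCL26 against BSA was 0.23 (SE 0.193, n = 3 per group, edgeR adjusted p = 1) with all 9 libraries and 0.23 (SE 0.0575, adjusted p = 0.00531) with 8. Ifnar2 encodes the chain that binds the ligand most tightly and carries JAK1. Ifnar2 was at 53.4, 55.7 and 59.1 CPM with BSA, at 54.2, 56.3 and 58.9 CPM with CCL26, and at 59.4, 61.6 and 60.7 CPM with CX3CL1. The BSA and CCL26 libraries covered the same range, and the log2 fold change was 0.01 in both fits (SE 0.106 and 0.0705, edgeR adjusted p = 1 and 0.936). Per kb of merged exons, the ratio of Ifnar1 to Ifnar2 within a library was 0.931, 0.949 and 0.927 with BSA and 1.14, 1.09 and 1.03 with CCL26. These ratios do not depend on how libraries are scaled. The groups did not overlap, and the exact two-sided permutation test gave p = 0.1, the smallest that 3 libraries against 3 allow (0.15 after adjustment over 15 such tests). With CX3CL1 this ratio was 0.513, 0.816 and 0.881, below every BSA and every CCL26 library (exact permutation p = 0.1 against each, 0.15 adjusted).

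Of the interferon gamma receptor, Ifngr1 encodes the ligand-binding chain that carries JAK1. Ifngr1 was at 75.3, 81.3 and 76.8 CPM with BSA, at 115, 107 and 95.8 CPM with CCL26, and at 86.0, 80.0 and 84.8 CPM with CX3CL1. All 3 CCL26 libraries lay above the other 6. Ifngr1 thus differed between CCL26 and BSA by 0.44 on the log2 scale (SE 0.113, n = 3 per group, edgeR adjusted p = 0.275) with all 9 libraries and 0.45 (SE 0.0664, adjusted p = 1.96e-05) with 8. Ifngr2 encodes the second chain, which carries JAK2 and which the cell needs in order to signal. Ifngr2 was at 106.9, 107.1 and 108.7 CPM with BSA, at 133, 119 and 123 CPM with CCL26, and at 124, 106 and 107 CPM with CX3CL1. The CCL26 libraries were above the BSA libraries, while CX3CL1 replicate 1 lay among the CCL26 values. The log2 fold change of CCL26 against BSA was 0.22 in both fits (SE 0.111, edgeR adjusted p = 0.902 with 9 libraries, and SE 0.0551, adjusted p = 0.00513 with 8). The ratio of Ifngr1 to Ifngr2 per kb was 0.932, 1 and 0.936 with BSA and 1.14, 1.19 and 1.03 with CCL26, again without overlap (exact permutation p = 0.1, 0.15 adjusted). With CX3CL1 it was 0.918, 1 and 1.05, which overlapped both other groups.

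Ifnar2, Ifnar1 and Ifngr2 lie close together on mouse chromosome 16. On GRCm38 (GENCODE M21), Ifnar2 runs from 91372783 to 91405589, Ifnar1 from 91485238 to 91507441 and Ifngr2 from 91547072 to 91565623, all on the plus strand. The stretch of 192.8 kb that holds them also holds Il10rb, the shared chain of the interleukin-10 and interferon lambda receptors, at 91406164 to 91425834. The neighbours did not all change with CCL26: Il10rb, at means of 117 CPM with BSA and 115 CPM with CCL26, had a log2 fold change of -0.03 (SE 0.0577, edgeR adjusted p = 0.80 with 8 libraries), and did not pass the test. In the exons of Ifnar2, 315 bp (9.46%) are shared with the read-through gene model Gm21970 on the same strand, so some of its reads may have been assigned elsewhere or left uncounted. Ifngr1 lies apart, on chromosome 10 from 19591949 to 19610229 (plus strand).

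Of the Janus kinases, Jak1 was level between CCL26 and BSA, while Jak2 and Tyk2 were higher with CCL26 in every library. Jak1, which serves both interferon receptors and the interleukin-6 family, was at 333.8, 336.2 and 333.7 CPM with BSA, at 350.3, 342.0 and 307.9 CPM with CCL26, and at 145, 319 and 317 CPM with CX3CL1. The CCL26 libraries lay on both sides of the narrow BSA range, and the log2 fold change was -0.01 (SE 0.259, edgeR adjusted p = 1) with 9 libraries and 0.00 (SE 0.044, adjusted p = 0.988) with 8. Jak2, the kinase of IFNGR2, was at 62.6, 69.0 and 59.6 CPM with BSA, at 77.2, 83.5 and 69.7 CPM with CCL26, and at 34.4, 68.2 and 66.3 CPM with CX3CL1. The lowest CCL26 library was just above the highest BSA library. For Jak2 the log2 fold change of CCL26 against BSA was 0.27 in both fits (SE 0.237, edgeR adjusted p = 1 with 9 libraries, and SE 0.0737, adjusted p = 0.00983 with 8). The Jak2 call was lost when BSA replicate 3 (adjusted p = 0.0706) or CCL26 replicate 2 (adjusted p = 0.0767) was left out as well.

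Tyk2, the kinase of IFNAR1, was at 53.1, 51.6 and 53.0 CPM with BSA, at 56.6, 63.3 and 62.5 CPM with CCL26, and at 16.8, 55.1 and 53.9 CPM with CX3CL1. The CCL26 libraries were above all others, by a small margin. Tyk2 differed between CCL26 and BSA by 0.21 on the log2 scale in both fits (SE 0.36, edgeR adjusted p = 1 with 9 libraries, and SE 0.0707, adjusted p = 0.0352 with 8). This call of Tyk2 was the least firm of those with 8 libraries: it was lost without BSA replicate 1 (adjusted p = 0.0741), 2 (0.114) or 3 (0.079), and without CCL26 replicate 2 (0.123) or 3 (0.0654). Exons of Tyk2 share 554 bp (8.07%) with 1700084C06Rik on the other strand, and the sources used here do not give the strand setting of the counting. Within libraries, Jak2 per kb stood at 0.270, 0.295 and 0.257 of Jak1 with BSA and at 0.317, 0.351 and 0.325 with CCL26. The same ratio for Tyk2 was 0.167, 0.161 and 0.167 with BSA and 0.170, 0.195 and 0.214 with CCL26. Neither pair of groups overlapped (exact permutation p = 0.1 for each, 0.15 adjusted). With CX3CL1 the Jak2 ratio was 0.341, 0.307 and 0.300. It too was above every BSA library (exact permutation p = 0.1, 0.15 adjusted), and it overlapped the CCL26 values. The Tyk2 ratio with CX3CL1 was 0.122, 0.182 and 0.179, which overlapped both other groups. Jak1 lies on chromosome 4 from 101152367 to 101265282 (minus strand), Jak2 on chromosome 19 from 29251828 to 29313080 (plus strand) and Tyk2 on chromosome 9 from 21104068 to 21131243 (minus strand).

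Of the STAT factors, Stat2 was higher and Stat3 lower in every CCL26 library than in every BSA library. Stat2 was at 55.8, 55.1 and 51.2 CPM with BSA, at 115.9, 111.6 and 111.3 CPM with CCL26, and at 37.3, 54.0 and 60.0 CPM with CX3CL1. The CCL26 libraries lay close together and far above the other 6. The log2 fold change of CCL26 against BSA was 1.06 (SE 0.171, n = 3 per group, edgeR adjusted p = 0.0432) with all 9 libraries and 1.07 (SE 0.0651, adjusted p = 6.61e-12) with 8. By the size of its change Stat2 was at the 96.6th percentile of all tested genes with 9 libraries.

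With CX3CL1 replicate 1 in the fit, the Stat2 call depended on which libraries were included. It was lost without BSA replicate 1 (edgeR adjusted p = 0.239), 2 (0.289) or 3 (0.317), without CCL26 replicate 1 (0.257), 2 (0.206) or 3 (0.226), and without CX3CL1 replicate 2 (0.0822), and was kept without CX3CL1 replicate 3 (0.0422). The log2 fold change of Stat2 stayed between 1.03 and 1.09 in all of these. Without CX3CL1 replicate 1, leaving out any further library kept the Stat2 call (largest adjusted p = 1.63e-09).

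Stat3 was at 196, 204 and 203 CPM with BSA, at 166, 178 and 171 CPM with CCL26, and at 85.2, 187 and 185 CPM with CX3CL1. All CCL26 libraries were below all BSA libraries. The difference for Stat3 was -0.23 on the log2 scale in both fits (SE 0.256, edgeR adjusted p = 1 with 9 libraries, and SE 0.0462, adjusted p = 0.000846 with 8). Per kb of merged exons, Stat2 stood at 0.458, 0.434 and 0.406 of Stat3 in the BSA libraries and at 1.12, 1.01 and 1.05 in the CCL26 libraries, a change of 2.45-fold (exact permutation p = 0.1, 0.15 adjusted). With CX3CL1 this ratio was 0.704, 0.464 and 0.522, also above every BSA library (exact permutation p = 0.1, 0.15 adjusted) and below every CCL26 library. Stat2 lies on chromosome 10 from 128270559 to 128292849 (plus strand) and Stat3 on chromosome 11 from 100885098 to 100939540 (minus strand). Exons of Stat3 share 72 bp (0.76%) with Stat5a on the other strand.

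**Figure D2:**
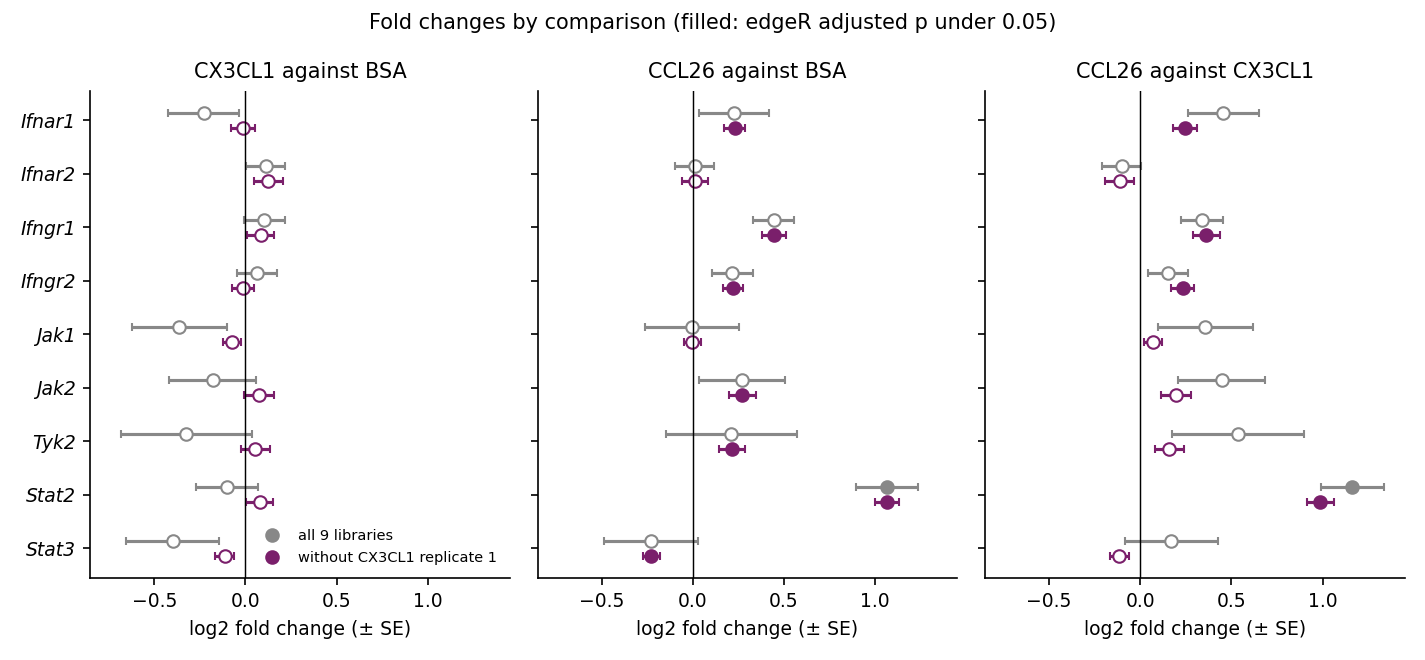
Log2 fold change with its SE for each gene in the 3 comparisons, in grey with all 9 libraries and in purple without CX3CL1 replicate 1, filled where the edgeR adjusted p was under 0.05. Stat2 is filled in both fits of both CCL26 comparisons, near 1 on the horizontal axis, and no point is filled for CX3CL1 against BSA.

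The promoters of the genes were read from RefSeq (GRCm38.p6), which held all 9, as the 250 bases before the annotated start. They were searched on both strands for the ISRE core (GAAA, any 2 bases, GAAA), which the STAT2 and IRF9 complex binds, and for the GAS motif TTCNNNGAA. Of 32851 such windows in the genome, 2.98% held the first and 7.02% the second. Among the 9 genes, only Stat2 had an ISRE core match and only Ifnar2 a GAS match, in these windows, and the other 7 had neither. The 3 windows below show the match of the most changed gene, the GAS match of a gene that did not pass the test in either fit, and the window of Stat3, which holds neither motif. Capitals mark the matches, and each window is written 5′ to 3′ in the direction of transcription.
Stat2, chr10:128270248-128270497, plus strand: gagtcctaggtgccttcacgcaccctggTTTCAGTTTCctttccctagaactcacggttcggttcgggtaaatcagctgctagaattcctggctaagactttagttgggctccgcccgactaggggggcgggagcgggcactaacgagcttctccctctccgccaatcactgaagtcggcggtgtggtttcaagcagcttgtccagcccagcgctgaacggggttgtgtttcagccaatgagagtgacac
Ifnar2, chr16:91372533-91372782, plus strand: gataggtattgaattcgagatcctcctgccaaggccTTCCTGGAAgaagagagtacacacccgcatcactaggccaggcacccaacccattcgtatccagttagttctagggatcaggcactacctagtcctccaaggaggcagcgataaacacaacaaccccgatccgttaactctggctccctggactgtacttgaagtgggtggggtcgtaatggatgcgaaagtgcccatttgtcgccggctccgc
Stat3, chr11:100939541-100939790, minus strand: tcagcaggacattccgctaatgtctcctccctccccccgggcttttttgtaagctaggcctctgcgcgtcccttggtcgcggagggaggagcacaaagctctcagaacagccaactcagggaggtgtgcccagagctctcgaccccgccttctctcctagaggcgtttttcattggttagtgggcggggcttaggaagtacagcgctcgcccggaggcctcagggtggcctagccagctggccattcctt

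In the Stat2 window the ISRE core reads TTTCAGTTTC on the strand shown, from base -222 to base -213 before the RefSeq start, which itself lies 61 bases upstream of the nearest GENCODE start. In the Ifnar2 window the GAS motif reads TTCCTGGAA from base -214 to base -206. A match says only that these letters occur there. The table of counts holds no measurement of binding.

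The order of the genes was compared per kb, since longer transcripts give more reads. Per kb of merged exons, with BSA the order of mean levels was Jak1 (46.3 CPM per kb), Ifngr2 (28.6), Ifngr1 (27.3), Stat3 (21.1), Ifnar2 (16.8), Ifnar1 (15.8), Jak2 (12.7), Stat2 (9.12) and Tyk2 (7.65). The libraries of Ifngr2 and Ifngr1 overlapped, as did those of Ifnar2 and Ifnar1, and the other neighbours in the order were apart. The mRNA of Jak1, the kinase that both receptors use, was thus the most abundant of the 9, and Stat2 and Tyk2 were the least abundant. With CCL26, Stat2 was in the fourth place at 19.1 CPM per kb, next to Ifnar1 (18.4) and Stat3 (18.0), of which Ifnar1 and Stat3 overlapped. Jak1 remained first (46.1) and Tyk2 last (8.86). With CX3CL1 the order of means was that with BSA except that Ifnar2 (18.2) came before Stat3 (16.0), and every neighbouring pair except Ifngr1 and Ifnar2 overlapped. These means and ranges include CX3CL1 replicate 1, in which Stat3 was at 8.94 CPM per kb. In CX3CL1 replicates 2 and 3 Stat3 stood above Ifnar2, as with BSA.

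The order depended on the length used. By the longest coding transcript, Jak1 again came first (68.2 CPM per kb with BSA) and Tyk2 last (10.9). Stat3, at 33.3, then stood above Ifngr2 at 29.0, and Ifnar1, at 23.9, above Ifnar2 at 18.4. With CCL26, Stat2 stood at 25.7 on this scale, below Stat3 at 28.4. That Stat2 reached or passed the level of Stat3 therefore held by merged exons alone, while the change of their ratio is the same by either length.

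**Figure D3:**
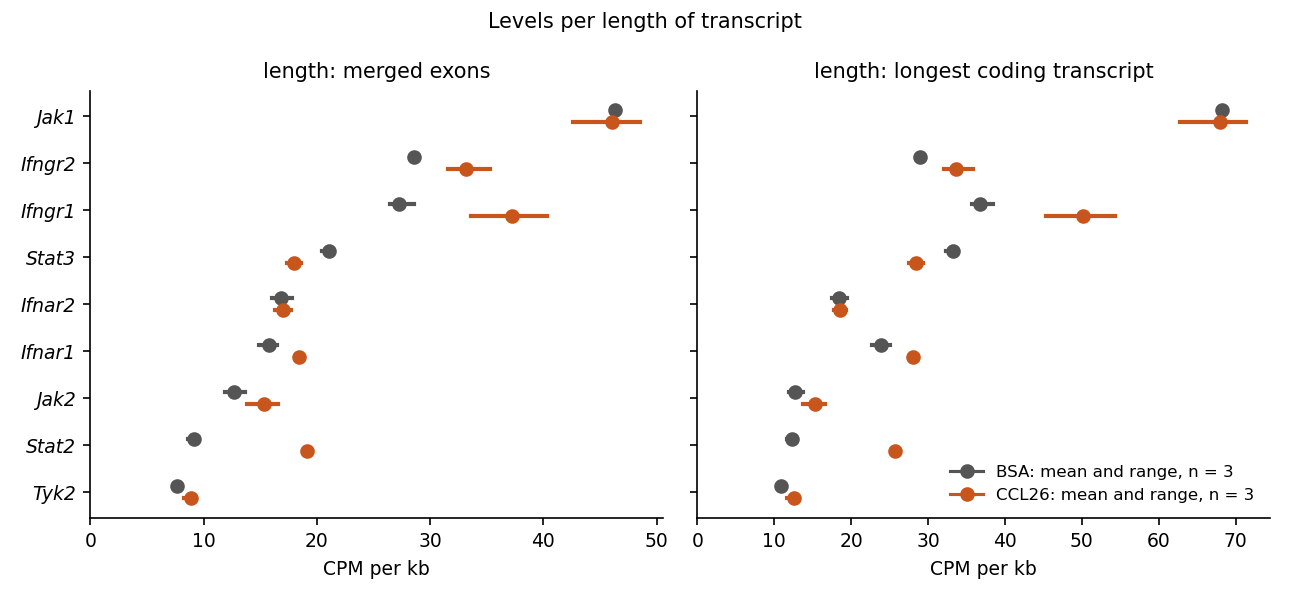
Mean level of each gene in CPM per kb with BSA and with CCL26 (points, with the range over n = 3 libraries as lines), by merged exon length on the left and by the longest coding transcript on the right. Stat2 moves from 9.12 to 19.1 CPM per kb by merged exons and from 12.3 to 25.7 by the longest coding transcript, while Jak1 stays first on both scales.

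The comparison of CX3CL1 with BSA, which shares its BSA libraries with the comparison above, asks the same question of the other chemokine. None of the 9 genes passed the test, with 9 or with 8 libraries. The background was 0% of all tested genes with 9 libraries and 0.332% with 8 (0.0227% higher, 0.310% lower). At an unadjusted p under 0.05, 405 of 12915 genes (3.14%) and 0 of the 9 passed in edgeR with all libraries. At an adjusted p under 0.05, DESeq2 and limma-voom called no gene with all 9 libraries. With 8 libraries they called 95 and 64 of all tested genes, and none of the 9. With 8 libraries the 1 gene at an unadjusted p under 0.05 was Stat3, at a log2 fold change of -0.11 (SE 0.0517, edgeR adjusted p = 0.636). Without replicate 1 the CX3CL1 libraries of Stat3, at 187 and 185 CPM, lay below the 3 BSA libraries, as did those of Jak1 (319 and 317 CPM), while those of Ifnar2 and Tyk2 lay above them. Values of CX3CL1 and BSA did not overlap for 4 of the 9 genes with 8 libraries, 2 higher and 2 lower, against 25.8% of all tested genes (12.6% higher, 13.2% lower). With all libraries they did not overlap for 3, 1 higher and 2 lower, against 11.7% (4.77% higher, 6.93% lower).

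With 8 libraries the log2 fold changes of CX3CL1 against BSA were small for all 9 genes, from -0.11 for Stat3 to 0.13 for Ifnar2 (SE 0.0784, edgeR adjusted p = 0.776). For Stat2, at 54.0 and 60.0 CPM in the 2 CX3CL1 libraries left, the difference was 0.08 (SE 0.0743, adjusted p = 0.874). With all 9 libraries, 6 of the 9 genes had negative log2 fold changes, down to -0.40 for Stat3 (SE 0.256, adjusted p = 0.711) and -0.36 for Jak1 (SE 0.259, adjusted p = 0.711). Without replicate 1 the value for Jak1 was -0.07 (SE 0.0493, adjusted p = 0.797). The signs for Jak2, Tyk2, Stat2 and Ifngr2 differed between the fits.

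In CX3CL1 replicate 1, the genes with long transcripts were low and those with short ones were not. Ifnar1, Jak1, Jak2, Tyk2, Stat2 and Stat3, with merged exons of 5.03 to 9.53 kb, were below all other 8 libraries. Ifngr1, Ifnar2 and Ifngr2, with 2.85 to 3.77 kb, lay within the range of the other 8. Of all tested genes, 42.7% were below the other 8 libraries in CX3CL1 replicate 1 and 36.2% were above them. Against the mean of its 2 replicates, the log2 ratio (CPM + 1) ran from -1.64 for Tyk2 through -1.13 for Jak1 and -1.12 for Stat3 to 0.06 for Ifngr1 and 0.22 for Ifngr2. Over all genes with a length, the median of this ratio was 0.75 below 2 kb, 0.23 from 2 to 4 kb, -0.24 from 4 to 6 kb, -0.48 from 6 to 8 kb and -0.87 above. In the last of these bins 77.3% of 2131 genes were below all other libraries, against 15.4% of 2273 in the first. The share was 48.6% from 4 to 6 kb and 62.1% from 6 to 8 kb. Spearman's rho of each library's deviation with length was -0.519 for replicate 1 and from -0.147 to 0.164 for the others (12905 genes, which share their libraries). What set this library apart was not tested.

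**Figure D4:**
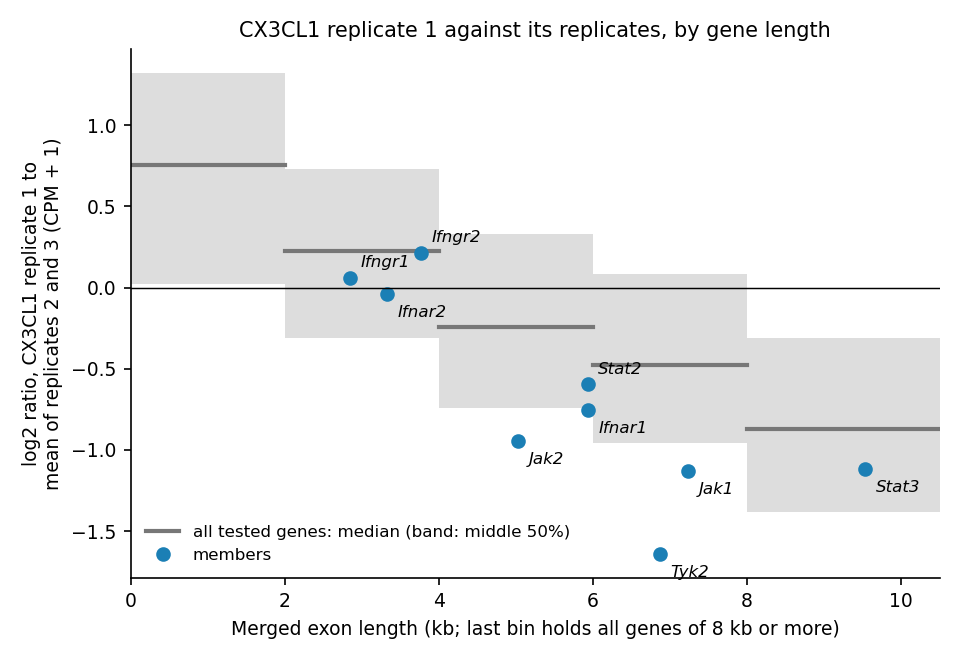
Log2 ratio of CX3CL1 replicate 1 to the mean of replicates 2 and 3 (CPM + 1) against merged exon length in kb, for the 9 genes (points) and for all tested genes in length bins (lines: medians, bands: middle 50%). The bin medians fall from 0.75 to -0.87, and the genes shorter than 4 kb lie near 0 while the other 6 lie below it.

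Length also went with the comparison of CCL26 and BSA. In the fit of 8 libraries the median log2 fold change over all genes ran from -0.06 below 2 kb to 0.06 at 8 kb and above. The part of length in the changes of the 9 genes was not tested.

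The chemokines were then compared with each other at their common dose and time, in libraries that also enter the comparisons above. Stat2 was higher with CCL26 than with CX3CL1, by a log2 fold change of 1.16 (SE 0.171, edgeR adjusted p = 0.0268) with all 9 libraries and 0.99 (SE 0.0736, adjusted p = 4.43e-10) with 8. It was the 1 gene of 9 called with 9 libraries, against 0.410% of all tested genes (0.395% higher, 0.0155% lower). As in the comparison with BSA, the 9-library call of Stat2 was lost without BSA replicate 1 (0.0858), 2 (0.0911) or 3 (0.0889), without CX3CL1 replicate 2 (0.0997), and without CCL26 replicate 1 (0.174), 2 (0.157) or 3 (0.147). With 8 libraries 4 of the 9 genes were called, all higher, against 10.1% of all tested genes (5.47% higher, 4.64% lower). Besides Stat2 these were Ifngr1 (0.36, SE 0.0743, adjusted p = 0.00166), Ifnar1 (0.24, SE 0.0645, adjusted p = 0.0139) and Ifngr2 (0.23, SE 0.0617, adjusted p = 0.0142). For these 4 genes every CCL26 library was above both remaining CX3CL1 libraries.

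These smaller differences rested on few libraries, since 2 CX3CL1 libraries remained. The call of Ifngr1 was lost without CX3CL1 replicate 2 (edgeR adjusted p = 0.0576). That of Ifnar1 was lost without CX3CL1 replicate 2 (0.216) or 3 (0.0525), and that of Ifngr2 without CX3CL1 replicate 2 (0.142) or 3 (0.103) or CCL26 replicate 1 (0.0834). Jak2 (0.20, SE 0.0823, adjusted p = 0.148), Tyk2 (0.16, adjusted p = 0.234), Jak1 (0.07, adjusted p = 0.444), Ifnar2 (-0.11, adjusted p = 0.445) and Stat3 (-0.11, SE 0.0516, adjusted p = 0.19) did not pass. Jak1 and Jak2 did pass when CCL26 replicate 3 was left out as well (adjusted p = 0.0192 and 0.0211). The groups did not overlap for 6 of 9 genes with all libraries, 5 higher and 1 lower, against 22.6% of all tested genes (12.9% higher, 9.76% lower). With 8 libraries they did not overlap for 8, 6 higher and 2 lower, against 36.8% (18.7% higher, 18.1% lower).

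The rest of the pathway was described by lists, some of which share genes. Of the 20 antiviral genes that the STAT2 and IRF9 complex is known to switch on, 11 rose and 0 fell with CCL26 against BSA with all 9 libraries, and 19 rose and 0 fell with 8. Over all tested genes 0.387% rose and 0.0465% fell with 9 libraries, and 9.74% rose and 9.26% fell with 8, which is the background for each list below as well. The median log2 fold change of the list was 1.28 with 8 libraries, beside 0.01 over all tested genes. Ifit1, which binds foreign RNA, was at 20.4 ± 2.56 CPM with BSA and at 104.8 ± 8.69 CPM with CCL26 (SD, n = 3), a rise of 2.36 on the log2 scale (SE 0.168, edgeR adjusted p = 0.000793 with 9 libraries). Rsad2, the antiviral enzyme viperin, was at 74.3, 72.5 and 72.4 CPM with BSA and at 377, 361 and 358 CPM with CCL26 (2.32, SE 0.202, adjusted p = 0.00213). Ifit3 rose by 1.89 (SE 0.141, adjusted p = 0.000793). Reads of Ifit1 and Ifit3 can be divided among near-identical copies, so their values are uncertain.

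Of the genes known to respond to interferon gamma through GAS sites, 10 of 12 were tested. With 9 libraries 3 rose and 0 fell against BSA, and with 8 libraries 7 rose and 1 fell (median 0.76), against 0.434% and 19.0% of all tested genes in either direction. Irf1, a transcription factor, was at 31.2 ± 1.69 CPM with BSA and at 61.9 ± 2.46 CPM with CCL26, a rise of 0.99 (SE 0.149, edgeR adjusted p = 0.0344 with 9 libraries). The guanylate-binding protein genes Gbp2 (1.20, SE 0.152, adjusted p = 0.0159) and Gbp5 (2.59, SE 0.434, adjusted p = 0.0494) rose too, from 13.5 ± 1.46 and 1.64 ± 0.341 CPM. The Gbp genes also have near-identical copies. The 10 genes known as STAT3 targets did not go one way: 0 were called with 9 libraries, and 4 rose and 2 fell with 8 (median 0.06), against 9.74% and 9.26% of all tested genes. Bcl3, a regulator of NF-kB, had a log2 fold change of 0.58 (edgeR adjusted p = 0.24 with 9 libraries and 0.00012 with 8). Il4ra, the interleukin-4 receptor chain (-0.32, adjusted p = 0.513 and 1.39e-05), and Mcl1, a survival factor (-0.26 and -0.25, adjusted p = 0.567 and 8.79e-07), were lower.

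Irf9, the DNA-binding partner of STAT2, was at 38.7, 50.5 and 48.2 CPM with BSA, at 81.8, 78.5 and 83.7 CPM with CCL26, and at 37.4, 51.2 and 49.1 CPM with CX3CL1. Its CCL26 libraries were above all others. Against BSA, Irf9 had a log2 fold change of 0.83 (SE 0.159, edgeR adjusted p = 0.0893) with 9 libraries and 0.83 (SE 0.0815, adjusted p = 3.28e-08) with 8. In the list of 6 STAT partners, importins and coactivators it was the 1 gene that rose with 8 libraries, while 1 fell and none was called with 9 (median -0.07 with 8, background 19.0% in either direction). The importin genes Kpnb1 and Kpna1, whose proteins carry cargo into the nucleus, had log2 fold changes of -0.09 and -0.10 (adjusted p = 0.061 and 0.223 with 8 libraries).

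Of 6 further JAK and STAT genes, 0 were called with 9 libraries and 3 rose with 8 (median 0.21), against 9.74% of all tested genes. Stat6, the factor of interleukin-4 signalling, rose by 0.19 (SE 0.05, edgeR adjusted p = 0.00641 with 8 libraries), and Stat5b, named after its value was seen, by 0.24 (SE 0.0765, adjusted p = 0.0313). Stat5a, the near copy of Stat5b, had a log2 fold change of 0.31 (SE 0.122, adjusted p = 0.0762).

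Of 18 tested negative regulators, which remove or block activated kinases and STATs, 1 rose with 9 libraries, and 5 rose and 2 fell with 8 (median 0.09). Over all tested genes 0.434% were called in either direction with 9 libraries and 19.0% with 8. The 1 called in both was Usp18, which displaces JAK1 from IFNAR2 and is itself induced by interferons. Usp18 was at 18.9, 18.8 and 17.7 CPM with BSA, at 43.8, 38.7 and 51.6 CPM with CCL26, and at 27.3, 21.8 and 21.7 CPM with CX3CL1. The groups of Usp18 did not overlap, and the log2 fold change of CCL26 against BSA was 1.28 in both fits (SE 0.157, edgeR adjusted p = 0.0146 with 9 libraries, and SE 0.105, adjusted p = 1.62e-09 with 8). With 8 libraries Socs4 (0.56, adjusted p = 1.35e-05) and Pias4 (0.32, adjusted p = 0.00204), inhibitors of other steps of the pathway, rose as well. With 9 libraries neither passed (adjusted p = 0.958 and 0.837).

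Of 20 tested chains of other receptors that use Janus kinases, none was called with 9 libraries, and 5 rose and 4 fell with 8 (median 0.15), beside 9.74% and 9.26% of all tested genes. Il15ra, which presents interleukin-15, rose by 1.78 (SE 0.362, edgeR adjusted p = 0.00083 with 8 libraries and 0.31 with 9) from a low level of 1.22 ± 0.67 CPM. Il7r rose by 0.58 (adjusted p = 1.79e-06 and 0.369). Il10ra, the ligand-binding chain of the interleukin-10 receptor, whose signal runs through JAK1, TYK2 and STAT3, was at 245, 257 and 245 CPM with BSA and at 195, 184 and 211 CPM with CCL26. Il10ra fell by 0.34 on the log2 scale (SE 0.0493, adjusted p = 1.48e-05 with 8 libraries and 0.416 with 9). Interferon genes themselves were not analysed here.

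**Figure D5:**
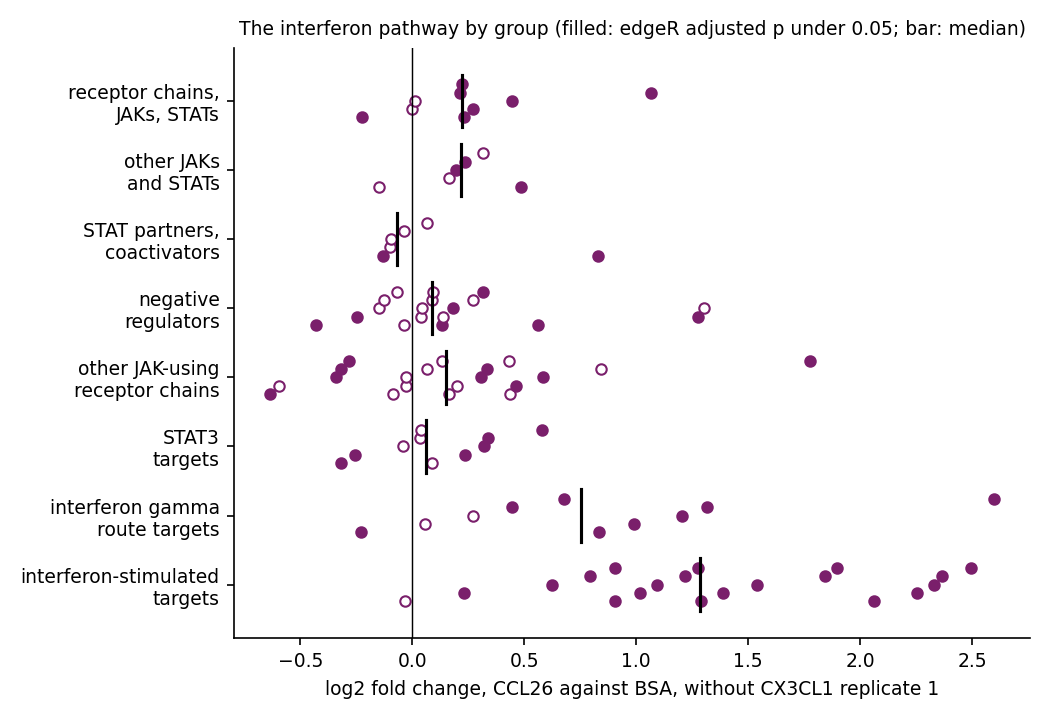
Log2 fold change of CCL26 against BSA without CX3CL1 replicate 1 for every tested gene of each list (points, filled where the edgeR adjusted p was under 0.05; bars: medians). The medians of the antiviral targets (1.28) and of the interferon gamma route targets (0.76) lie to the right of those of the other groups, which run from -0.07 to 0.22.

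The genes whose pattern over the libraries was most like that of Stat2 were found by Pearson's r of log2 CPM among 10640 genes. They were Cmpk2 (r = 0.995 over 9 libraries and 0.995 over 8), Ddx58 (0.994 and 0.992), Parp14 (0.992 and 0.989), Slfn8 (0.991 and 0.988) and Birc3 (0.991 and 0.988). Cmpk2 encodes a nucleotide kinase, Ddx58 the RNA sensor RIG-I and Birc3 an inhibitor of apoptosis. All of these correlations share the same libraries and include the differences between groups. The order depended on CX3CL1 replicate 1: over 8 libraries the same 5 genes ranked 7, 18, 28, 34 and 32, so none of them was among the 5 most like Stat2.

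Among the 9 genes themselves, the correlations changed when CX3CL1 replicate 1 was left out. Jak1 correlated with Tyk2 at r = 0.97 and with Stat3 at 0.955 over 9 libraries, and at -0.143 and 0.0397 over 8. Over 8 libraries Stat2 went with Ifngr1 (r = 0.943), Ifngr2 (0.935) and Ifnar1 (0.924) and against Stat3 (-0.892). Stat2 and Ifngr1 correlated at 0.83 over 9 libraries, and Stat2 and Stat3 at 0.311. The differences between groups were not removed, so these correlations in part restate the changes above and are not separate evidence.

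The labelled cell type was checked against its markers. All 8 macrophage markers were detected, and their summed level was 29500 to 30000 CPM with BSA, 27700 to 42000 with CX3CL1 (42000 in replicate 1) and 23800 to 24400 with CCL26. Most of this sum was Lyz2, the lysozyme gene, at a mean of 23490 CPM with BSA and 18340 CPM with CCL26, and at 36700 CPM in CX3CL1 replicate 1. The other markers did not go one way in that library. Adgre1 at 1650 CPM and Mertk at 14.7 CPM were below their BSA means of 3048 and 57.1 CPM. Fcgr1, at 156.6 CPM, was above its BSA mean of 80.9 CPM. With 8 libraries 6 of the 8 markers were lower with CCL26 than with BSA (9.26% of all tested genes), and with 9 libraries 0 (0.0465%). Granulocyte markers, of which 7 of 8 were analysed (all but Ly6g), summed to 64.1 to 69.4 CPM with BSA, 77.3 to 82.8 with CCL26 and 68.8 to 179 with CX3CL1 (179 in replicate 1). Of these 7, 2 were higher with CCL26 than with BSA with 8 libraries (9.74% of all tested genes), and 0 with 9 libraries (0.387%). Dendritic cell markers (3 of 5, without Clec9a and Siglech) summed to 1.85 to 5.76 CPM over the 9 libraries, and stromal markers (3 of 5) to 0 to 2.28 CPM. Kit, the 1 mast cell marker analysed of 4, was at 1.69, 1.07 and 1.08 CPM with BSA, at 3.28, 3.36 and 2.55 CPM with CCL26, and at 0, 1.22 and 1.52 CPM with CX3CL1. It was higher with CCL26 than with BSA with 8 libraries, by a log2 fold change of 1.26 (SE 0.348, edgeR adjusted p = 0.0115), and did not pass with 9 (adjusted p = 1). Markers of T and NK cells and of erythroid cells were not analysed here. The part of these shifts in the changes of Stat2 and the other genes was not tested.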

How the data were processed

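The values are unscaled gene-level counts that the authors deposited in 1 table, already filtered to 13593 genes. Every gene in it reached at least 0.431 CPM (without TMM) in its second-highest library. STAR, featureCounts, MultiQC and the builds GRCm38 and mm10 are named, without versions, in the submitters' processing notes, and the sources used here do not give the strand setting. Columns were matched to libraries by the sample codes in the labels, and symbols lacking for 1343 genes were taken from GENCODE M21 where listed (1333). Genes were filtered with filterByExpr by group and scaled by TMM. All 9 libraries entered 1 edgeR 4.0.16 fit (quasi-likelihood F test, R 4.3.3) with group as the only term. P-values were adjusted over all tested genes by Benjamini-Hochberg, with a threshold of 0.05. The SE was taken from the F statistic (size of the change over the root of F). CPM use TMM-scaled library sizes, and they do not separate reads of overlapping genes or of near-identical copies.

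The genes and lists were chosen with earlier results of these data known. All 9 genes were named, and up to 3 examples per list with the smallest p in CCL26 against BSA; 1 listed gene is not reported here. The 5 genes most like the gene with the smallest p have a mean of at least 1 CPM. Alternatives were DESeq2 1.42.0, limma-voom (limma 3.58.1), other scalings and filters, a replicate block, 6-library fits and leaving out libraries. The edgeR fit of all 9 libraries was run on simulated counts for CCL26 against BSA, in which no library stood apart. The fit of 8 libraries was not simulated. Figures were drawn with matplotlib 3.10.9.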

Additional observations from a re-analysis of the deposited data

How the results depend on the processing

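For CCL26 against BSA the count of the 9 genes past the threshold was 1 with all 9 libraries. It was 2 with the DESeq2 Wald test (Ifngr1 and Stat2), 0 with a replicate block, 6 in the fit of the 6 libraries compared, and from 0 to 7 when libraries were left out, 7 without CX3CL1 replicate 1. For CCL26 against CX3CL1 it was 1, and 0 with the block, 0 in the fit of 6 libraries and from 0 to 6 when libraries were left out, 4 without CX3CL1 replicate 1. For CX3CL1 against BSA it was 0 under every alternative run. DESeq2 size factors, upper quartile scaling, limma-voom, no filter and a filter of 5 CPM in 3 libraries changed none of these counts with all 9 libraries. Of all genes past the threshold, the counts also changed. For CCL26 against BSA they were 56, and 248 with DESeq2, 14 with the block, 2417 with 6 libraries and 9 to 2734 with libraries left out (2517 without CX3CL1 replicate 1). For CCL26 against CX3CL1 they were 53, and 253, 11, 4 and 10 to 1720 (1338). For CX3CL1 against BSA they were 0, and 0 to 187 with libraries left out (44). Without CX3CL1 replicate 1, DESeq2, limma-voom and DESeq2 size factors, chosen after seeing the data, called 7 of the 9 genes for CCL26 against BSA, and upper quartile scaling 6, without Tyk2. Upper quartile scaling then split all calls into 1091 higher and 1565 lower, against 1290 and 1227.

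Correlations of same-numbered deviations from the group means ran from -0.08 to 0.05, and 3 of 9 libraries correlated best with their own number. The group means include CX3CL1 replicate 1, so these values do not show whether replicate numbers pair the libraries. Without CX3CL1 replicate 1 the block gave 7 and 4 of the 9 genes for the comparisons with CCL26. Signs turned only for differences that passed in no fit. With libraries left out, CCL26 against BSA ran from -0.025 to 0.051 for Ifnar2 and from -0.041 to 0.052 for Jak1, and CCL26 against CX3CL1 from -0.14 to 0.35 for Stat3. CX3CL1 against BSA then ran from -0.38 to 0.028 for Ifnar1, -0.023 to 0.10 for Ifngr2, -0.34 to 0.14 for Jak2, -0.57 to 0.068 for Tyk2 and -0.25 to 0.15 for Stat2. Ifnar2 (CCL26 against BSA) went to -0.012 with upper quartile scaling, -6.2e-05 with DESeq2 and -0.017 with upper quartile scaling on 8 libraries. On 8 libraries the turned values for Jak2, Tyk2 and Stat2 (CX3CL1 against BSA) and Stat3 (CCL26 against CX3CL1) were 0.079, 0.030, 0.099 and -0.093 with the block, 0.075, 0.052, 0.078 and -0.12 with DESeq2, 0.074, 0.051, 0.083 and -0.11 with limma-voom, 0.074, 0.052, 0.078 and -0.12 with DESeq2 size factors, and 0.067, 0.044, 0.070 and -0.13 with upper quartile scaling. Ifngr2 (CX3CL1 against BSA) was then -0.013, -0.011, -0.014 and -0.021 with the last 4. The cause was not tested.

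Each of the 9 genes had at least 254 counts in every library. With 3 per group, and 2 for CX3CL1 once replicate 1 is left out, small changes such as those of Tyk2 and Jak2 depend on single libraries, and a p past the threshold in one comparison and not in another does not show that the comparisons differ.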
